A study of Mus musculus with 4 samples.

Results

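Mitosis genes are genes whose products carry a cell through division: cyclins and their kinase, the kinetochore, the spindle, the proteins that release sister chromatids, and those that cut the cell apart. A list of 38 gene symbols was looked up on expression arrays of mouse osteoclast formation in culture. It gave 37 genes, out of 18193 genes that could be named on the arrays, and Ccnb1 was not analysed here. A gene was taken from the probe set (a group of short probes against 1 transcript) annotated with that symbol alone, the brightest one by mean log2 value where there were several. Of the 37 genes, 23 had several such probe sets and 14 had 1.

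The arrays followed cells of C57BL/6 mice through 4 stages, with 1 array per stage and no replicates. Marrow of femurs and tibias from animals 8 to 10 weeks old was kept for 3 days in M-CSF at 100 ng/ml, the growth factor of macrophages, to give bone marrow macrophages (BMM). Those cells received M-CSF and RANKL, the cytokine that drives osteoclast formation, at 100 ng/ml each for 2 days, and the mononuclear cells positive for the osteoclast enzyme TRAP were harvested as pre-osteoclasts (pOC). A further 2 days with both cytokines produced multinucleated osteoclasts on plastic (mOCp) or on dentin slices, where they resorb (mOCd). All stages therefore share M-CSF and the strain. No array of cells kept with M-CSF alone for the later days was analysed here, so effects of RANKL, of maturation and of days in culture cannot be told apart. Whether the RNA of a stage came from 1 animal or from several pooled ones is not given in the labels.

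Osteoclasts form when precursors of the macrophage lineage stop dividing and fuse, so the nuclei of the mature cell come from fusion and not from division without cytokinesis. Macrophages grown in M-CSF are a dividing population. In dividing cells the transcripts of most mitosis genes accumulate late in the cycle, under the transcription factors B-Myb and FOXM1 and the DREAM and MuvB complexes. MuvB binds a short promoter element called CHR, whose commonest letters are TTTGAA, and the factor NF-Y binds the CCAAT box that often lies near it.

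Intensities are linear, and each array had a trimmed mean of 100.0. The floor, which is the median intensity of an array, lay between 12.7 and 15.8, and lower values were raised to it before ratios were taken. To be counted as higher or lower, a gene had to differ by at least 2-fold between the arrays compared, with the brighter value reaching the 75th percentile of its array, between 77.8 and 87.0. With 1 array a stage there is no test and no error between cultures. The guide to measurement error was the disagreement among probe sets of the same gene, whose SD was 0.391 to 0.504 on the log2 scale, depending on the comparison. Sets of 4 values below stand in the order BMM, pOC, mOCp, mOCd. The stage labels were checked against markers: Acp5, which encodes TRAP, stood at 37.6, 6674.9, 9801.2 and 8858.4, and the calcitonin receptor Calcr at 1.8, 15.5, 283.1 and 305.3. The macrophage receptor Adgre1 stood at 1581.9, 319.6, 1191.3 and 491.4. Of 11 macrophage markers 8 were lower in pOC than in BMM, and 11, 11, 11 and 9 lay above the floor. Some stayed bright in the mature cultures, as Csf1r did at 5815.9, 4898.6, 7511.7 and 7644.1. Others came near the floor, such as Fcgr1 at 1967.2, 57.0, 30.3 and 16.7 and Mrc1 at 770.2, 36.3, 33.4 and 11.2, named after their values were seen. On plastic 4 of the 11 (Adgre1, Cd14, C1qa and C1qb) were higher than in pOC and 0 lower, where 3.47% of named genes were higher. On dentin 0 were higher and 0 lower than in pOC, and 4 were lower than on plastic, against 0.967% of named genes.

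The genes were chosen by function, and their promoter letters were not used in the choice. Promoter windows from RefSeq (assembly GRCm38.p6), from 250 bases before to 50 after the transcription start, matched 32 of the 37 genes. Motifs of 3 kinds were searched on both strands: TTTGAA, the CHR form, then CCAAT, and 4 forms of the element bound by E2F factors (TTTGGCGC, TTTCGCGC, TTTCCCGC and TTTGCCGC). No match of one kind overlapped a match of another. Below are the 250 bases before the start of 6 genes, chosen to show the usual layout, large differences between stages and the 1 gene that went the other way. They are written 5′ to 3′ on the strand of the gene, in lower case, with the matches in capitals (TTCAAA and ATTGG are TTTGAA and CCAAT read on the other strand).
Cdc20 (chr4:118437344-118437593, minus strand): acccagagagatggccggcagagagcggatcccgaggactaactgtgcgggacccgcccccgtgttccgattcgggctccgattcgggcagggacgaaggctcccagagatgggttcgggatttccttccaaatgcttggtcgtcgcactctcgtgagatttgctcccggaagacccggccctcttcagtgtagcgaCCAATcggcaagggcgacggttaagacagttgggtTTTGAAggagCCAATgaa
Ube2c (chr2:164769679-164769928, plus strand): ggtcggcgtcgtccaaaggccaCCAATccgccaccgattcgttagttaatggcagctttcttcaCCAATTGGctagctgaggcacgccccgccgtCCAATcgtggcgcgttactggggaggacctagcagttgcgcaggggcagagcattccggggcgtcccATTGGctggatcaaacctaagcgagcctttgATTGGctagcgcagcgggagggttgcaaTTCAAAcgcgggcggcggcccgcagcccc
Kif11 (chr19:37376132-37376381, plus strand): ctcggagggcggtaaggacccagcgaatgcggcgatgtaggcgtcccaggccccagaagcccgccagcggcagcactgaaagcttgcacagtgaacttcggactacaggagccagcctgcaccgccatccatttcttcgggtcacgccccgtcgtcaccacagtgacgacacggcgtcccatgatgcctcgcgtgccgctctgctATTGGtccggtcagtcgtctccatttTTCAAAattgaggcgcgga
Top2a (chr11:99024190-99024439, minus strand): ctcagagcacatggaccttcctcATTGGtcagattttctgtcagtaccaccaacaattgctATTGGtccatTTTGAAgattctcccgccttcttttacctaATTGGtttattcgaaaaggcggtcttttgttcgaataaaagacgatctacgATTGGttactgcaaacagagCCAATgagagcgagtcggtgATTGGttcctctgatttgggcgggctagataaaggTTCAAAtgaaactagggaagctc
Cdk1 (chr10:69352913-69353162, minus strand): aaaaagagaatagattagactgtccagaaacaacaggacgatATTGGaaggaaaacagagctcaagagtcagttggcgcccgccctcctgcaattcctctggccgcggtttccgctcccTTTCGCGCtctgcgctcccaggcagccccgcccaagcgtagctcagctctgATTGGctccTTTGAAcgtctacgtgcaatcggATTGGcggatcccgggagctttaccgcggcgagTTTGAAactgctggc
Espl1 (chr15:102296043-102296292, plus strand): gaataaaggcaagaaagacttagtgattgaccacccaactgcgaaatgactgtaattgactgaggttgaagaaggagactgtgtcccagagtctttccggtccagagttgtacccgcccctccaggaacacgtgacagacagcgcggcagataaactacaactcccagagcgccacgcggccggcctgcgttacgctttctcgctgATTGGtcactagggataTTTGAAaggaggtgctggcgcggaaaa

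In Cdc20 the TTTGAA match began 18 bases before the start, in Ube2c 29, in Kif11 19 and in Espl1 27. Top2a had 2 matches, at 179 and 23 bases, and Cdk1 had 2, at 71 and 15. Each of the 6 windows also held CCAAT, with 6 matches in Ube2c and in Top2a and 1 in Kif11. The Ube2c matches at 186 and 183 bases overlap, in the letters CCAATTGG, which read CCAAT on both strands. In Cdk1 alone of the 6 there was an E2F-type match, 131 bases before the start.

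Among the 32 mitosis genes with a promoter window, 24 (75%) held TTTGAA, against 15.7% of the 14452 named array genes with a window. Within 100 bases before to 50 after the start, 23 of the 32 (71.9%) held it, against 6.5%. CCAAT was found in 24 (75%) against 42.0%, and at least 2 CCAAT matches in 16 (50%) against 14.9%. Both TTTGAA and CCAAT occurred in 21 (65.6%), against 6.21%. An E2F-type match was found in 1 mitosis gene (3.12%), against 3.81% of named genes. The 33 genes of DNA replication and S phase that had a window showed a different make-up, with TTTGAA in 4 (12.1%) and an E2F-type match in 13 (39.4%). A match describes letters and is not evidence of binding, and its absence says only that these letters are not in the window.

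The mitosis genes were bright in macrophages and pre-osteoclasts and dim in both mature cultures. All 37 genes reached the 75th percentile of the BMM array and 36 that of the pOC array, but 18 did in mOCp and 14 in mOCd. The median intensity, in stage order, was 518.6, 304.6, 74.5 and 63.3. For 36 of the 37 genes both early arrays lay above both mature arrays, an order that 22.0% of all named genes showed. The exception was Espl1. BMM was the highest of the 4 arrays for 33 genes, pOC for 3 (Aurka, Bub1b and Ube2c) and mOCd for 1. The low values mostly stayed above the floor: 36 genes did so on every array, and Ndc80 was under it in both mature cultures. The floor is the array median and not a detection limit, so whether the dim transcripts were detected was not tested. In a bulk RNA, fewer dividing cells and less of each transcript per cell cannot be told apart.

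**Figure D1:**
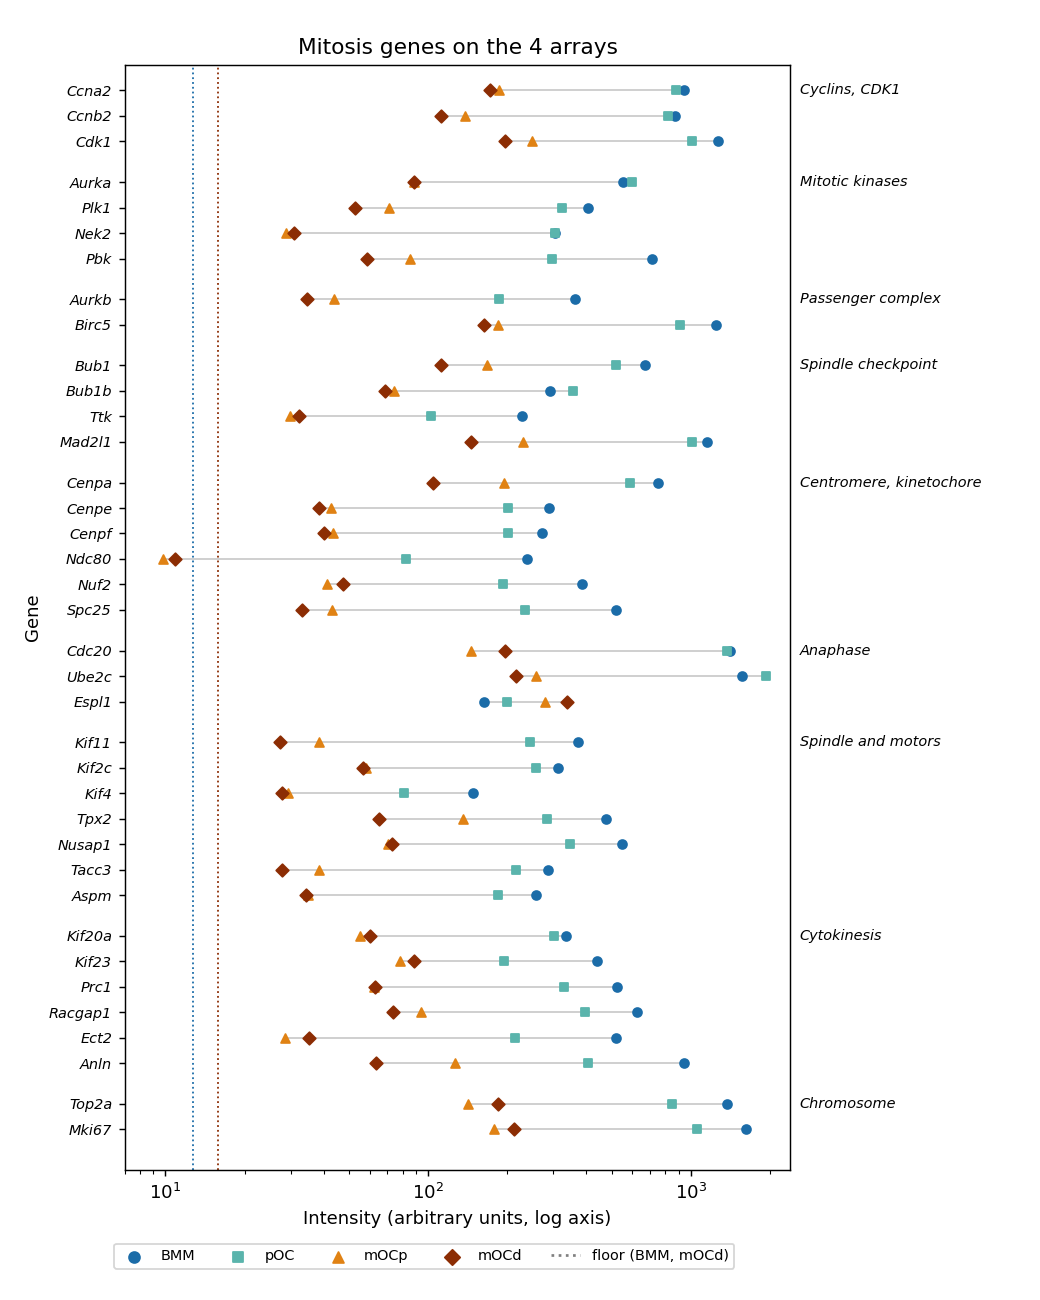
Intensity of each of the 37 mitosis genes on the 4 arrays (log axis), 1 row per gene grouped by role and 1 point per stage, with dotted lines at the BMM and mOCd floors. The BMM and pOC points lie right of the mOCp and mOCd points for every gene except Espl1, and both mature points of Ndc80 lie under the floor.

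Scaled to its own BMM value, the median mitosis gene stood at 71.5% in pOC, with a range of 34.5% to 123%. It stood at 14.8% in mOCp and 13.3% in mOCd, and without Espl1 the ranges were 5.51% to 28.6% and 6.36% to 23.4%. Of the difference between BMM and mOCp on the log2 scale, a median of 18.3% had come about by pOC. The highest such share was 47.0%, for Kif23. On the way to dentin the median share was 16.3%, and the highest was 50.6%, again for Kif23, the 1 gene over the midpoint. That share rests on the brightest probe set of Kif23. Another of its probe sets read 136.1, 60.3, 14.9 and 15.4. Its log2 ratio was −1.17 in pOC over BMM and −1.93 in mOCd over pOC, the latter a bound, which puts it under the midpoint.

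**Figure D2:**
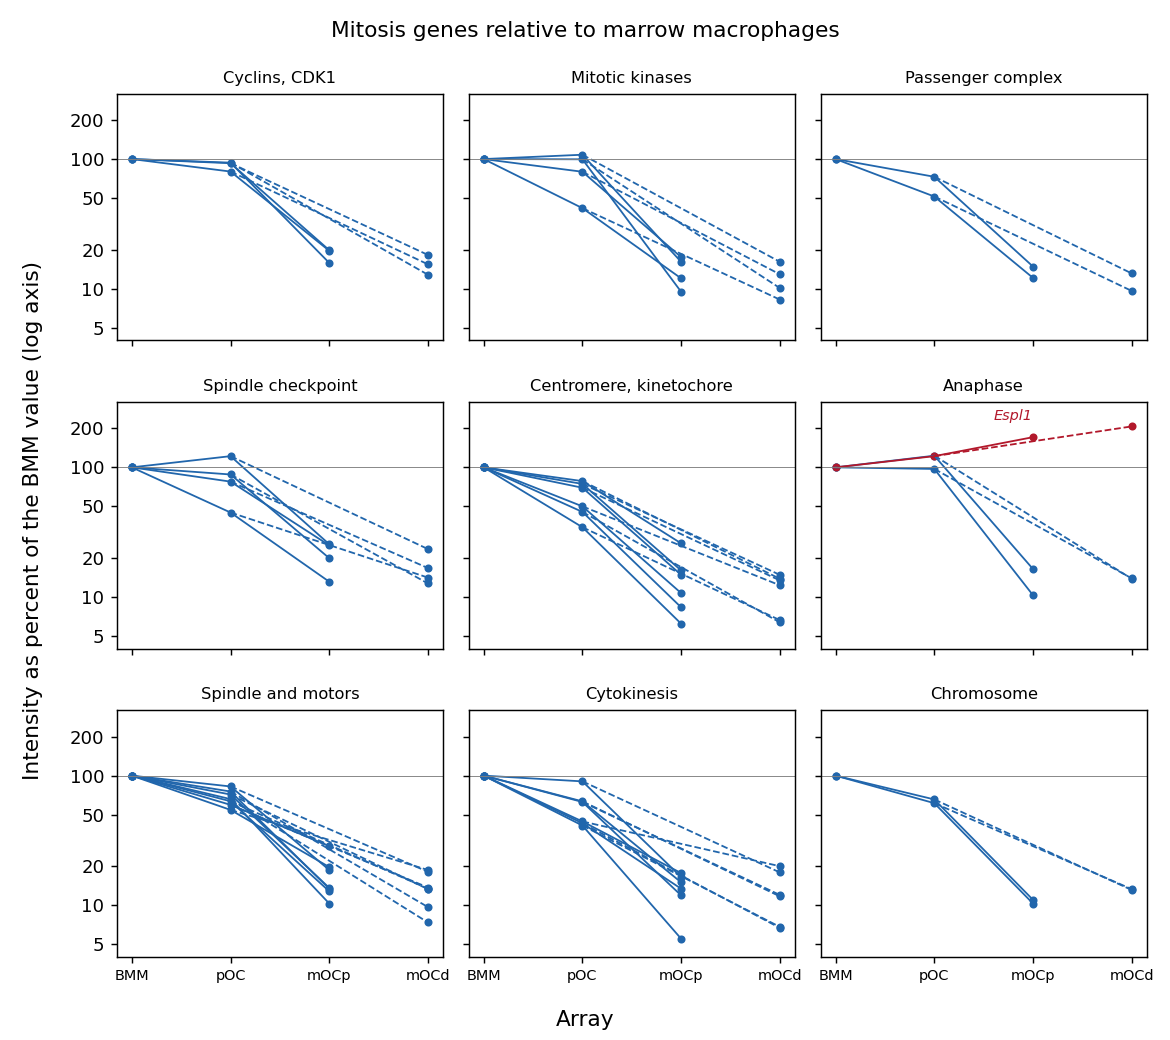
Level of each mitosis gene as a percentage of its own BMM value (log axis) over the 4 arrays, 1 line per gene in panels by role, with dashed segments from pOC to mOCd. The pOC points have a median of 71.5%, the mOCp points 14.8% and the mOCd points 13.3%, and Espl1 (red) alone ends above its start.

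The comparison of pOC with BMM covers the first 2 days with RANKL. Of 37 mitosis genes 7 were lower in pOC and 0 higher, where 5.24% of all named genes were lower and 4.43% higher. Among the 7254 genes bright enough to be counted, 13.1% were lower, and all 37 mitosis genes are in that set. The median log2 ratio of the mitosis genes was −0.48, beside 0.04 for those bright genes and 0.19 for all named genes. The sign was negative for 33 genes and positive for 4. Within 1 probe-set SD of 0 were 15 of the 37, much the same share as the 40.7% of those bright genes. Lower by more than 2 SDs were 10 (18 and 9 with the SD of the mitosis genes alone, 0.459). With the log2 values averaged over all probe sets of a gene, 3 and not 7 were counted.

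The 7 genes were Ndc80, Ect2, Pbk, Anln, Kif23, Ttk and Spc25. By role they belong to the kinetochore (Ndc80 and Spc25), the spindle checkpoint (Ttk), cytokinesis (Ect2, Anln and Kif23) and the mitotic kinases (Pbk). Whether any role was over-represented was not tested. Ndc80, Ect2 and Pbk have 1 probe set each, which averaging cannot change, and the 4 others were not counted with averaged values. Folds ran from 2.21-fold lower for Spc25 to 2.89-fold lower for Ndc80. Nuf2, the partner of Ndc80 in the same complex, stood just outside, at 384.8 in BMM and 192.5 in pOC. The other probe sets did not all share the direction: that of Anln read 31.6 in BMM and 55.4 in pOC, and that of Ttk lay under the floor in pOC. For Ube2c, at 1938.3 against 1572.0 in BMM, and for Aurka and Bub1b the pOC value was the highest of the 4, with none of them counted as higher.

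In mature osteoclasts on plastic against pre-osteoclasts, 35 of 37 mitosis genes were lower and 0 higher, where 4.51% of named genes were lower and 3.47% higher. Their median log2 ratio was −2.23, beside −0.03 for genes bright enough to count, of which 11.4% were lower. At least 4-fold lower were 28 of the mitosis genes, against 0.748% of named genes and 1.89% of those bright enough to count. The lower values ran from 2.08-fold for Tpx2 to 10.5-fold for Nek2. Lower by more than 2 probe-set SDs were 36 genes, all but Espl1. With the SD taken over the mitosis genes alone, which was 0.578 here, there were 35, without Tpx2.

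On dentin against pre-osteoclasts the count was again 35 lower and 0 higher, with 4.86% of named genes lower and 4.28% higher. The median log2 ratio was −2.38, beside −0.01 for bright genes, of which 12.2% were lower. At least 4-fold lower were 33 mitosis genes, against 1.04% of named genes and 2.63% of bright ones. With the larger probe-set SD of the mitosis genes alone, 0.837, 33 were lower by more than 2 SDs, without Ttk, Kif4 and Kif23. Folds ran from 2.22-fold for Kif23 to 9.89-fold for Nek2. The 35 genes were the same on plastic and on dentin, but both comparisons share the pOC array, so an error in that array would enter both. Espl1 and Kif4 were counted in neither. Kif4 was 2.76-fold and 2.91-fold lower, and its pOC value of 80.7 lay just under the 81.5 needed.

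Genes with and without the TTTGAA letters had like median ratios in the mature cultures against pOC. The 24 with a match had medians of −2.33 on plastic and −2.41 on dentin, with 22 lower in each, and the 8 without had −2.27 and −2.43, with 8 lower in each. Espl1 and Kif4, which were counted in neither, both held a match. Between BMM and pOC the medians were −0.54 and −0.43, with 6 and 0 lower, where 13.1% of bright genes were. With only 8 genes lacking the letters, whether the letters matter to the ratios was not tested.

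The 35 in each comparison depended on the settings. With log2 values averaged over all probe sets of a gene, 26 of the 37 were lower in each. With probe sets whose names carry a suffix for shared or ambiguous probes left out, 29 genes could be measured and 23 were lower in each comparison. With the brightness needed set at the 90th percentile, 16 were lower in each, while quantile normalization gave 34 and 35 and cyclic loess 33 and 34. The share of lower calls among all genes also moved with the scaling: called genes that were lower made up 54.2%, 56.5% and 53.2% of all called in pOC over BMM, mOCp over pOC and mOCd over pOC, but 43.2%, 85.3% and 78.3% with arrays equalised on their spike-in controls, and 67.4%, 59.0% and 63.2% with arrays equalised on their medians. The mitosis genes gave 5, 35 and 35 lower with the spike-in scaling, and 10, 35 and 35 with the median scaling.

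**Figure D3:**
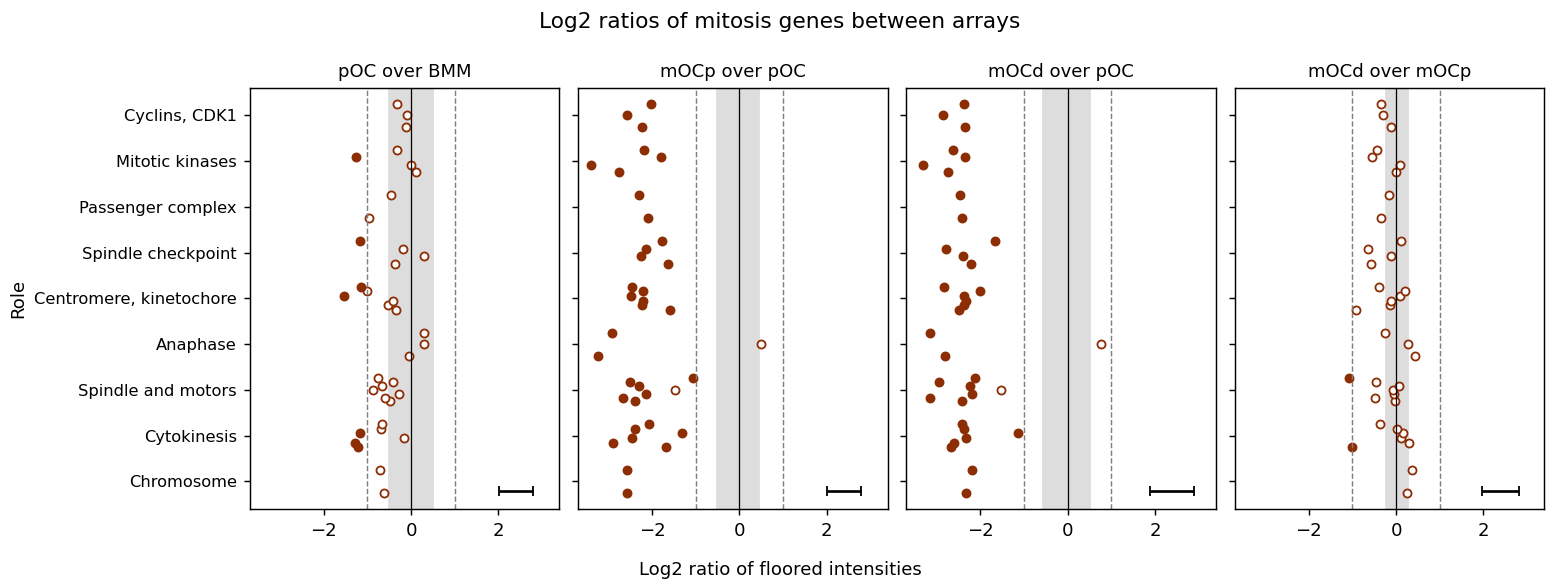
Log2 ratios of the 37 mitosis genes in the 4 comparisons, 1 point per gene in rows by role, filled where counted; the grey band spans the middle quartiles of genes bright enough to count, dashed lines mark 2-fold, and the black bar gives 1 probe-set SD either side. In mOCp over pOC and mOCd over pOC every point but Espl1 lies left of 0 and of the band, while in pOC over BMM 7 points are filled and in mOCd over mOCp 2. The mature Ndc80 points against pOC are bounds.

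The cyclins and their kinase differed little between BMM and pOC. Ccna2 encodes cyclin A2, active from S phase into early mitosis, and read 945.3, 878.0, 186.9 and 172.5. Ccnb2, a mitotic cyclin B, read 873.5, 819.2, 138.3 and 112.2. Cdk1, the kinase that B cyclins activate to start mitosis, read 1269.2, 1016.8, 248.5 and 195.9. For each of the 3 genes the early values sit together and the mature ones sit together, with no overlap. Against pOC, Ccna2 was 4.70-fold lower on plastic and 5.09-fold on dentin, Ccnb2 5.92-fold and 7.30-fold, and Cdk1 4.09-fold and 5.19-fold.

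Among the mitotic kinases Nek2 had the widest gap to pOC of the 36 genes measured above the floor on every array. Nek2 helps centrosomes separate, and its intensity was 305.7, 304.6, 28.9 and 30.8. It was equal in the early arrays to within the probe-set error, and 10.5-fold and 9.89-fold lower in the mature ones. Its second bright probe set read 154.9, 123.0, 15.9 and 17.0, with the same split. Aurka encodes Aurora A, the kinase of spindle poles, and read 552.2, 597.2, 88.7 and 88.8. Plk1, a kinase needed at many steps from mitotic entry to cytokinesis, read 406.3, 324.2, 71.3 and 52.6. Both were far lower in the mature cultures, Aurka 6.73-fold on either surface and Plk1 4.55-fold on plastic and 6.16-fold on dentin. Pbk differed from these in that it was already lower in pOC, at 711.0, 297.5, 85.5 and 58.5.

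The chromosomal passenger complex corrects faulty attachments of chromosomes to the spindle and later helps in cytokinesis. Aurkb, its kinase Aurora B, read 361.6, 186.0, 43.8 and 34.7. Birc5, its subunit survivin, read 1247.7, 911.4, 184.4 and 163.6. Both were lower in the mature cultures, Aurkb 4.25-fold and 5.36-fold and Birc5 4.94-fold and 5.57-fold against pOC. The other subunits, outside the 37 genes, had like orders: Incenp, the scaffold, read 2543.1, 1005.1, 320.1 and 270.1, and Cdca8, borealin, 992.5, 564.8, 133.4 and 121.8.

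The spindle checkpoint holds anaphase back until every chromosome is attached. Mad2l1, which inhibits Cdc20 in that state, read 1152.0, 1015.2, 229.3 and 146.0. Bub1, a kinase at kinetochores, read 669.7, 519.6, 167.4 and 111.6. Bub1b, which encodes BubR1, read 292.2, 357.8, 74.5 and 68.4. All 3 had both mature values well under both early ones, 4.43-fold and 6.95-fold lower than pOC for Mad2l1, 3.10-fold and 4.66-fold for Bub1, and 4.80-fold and 5.23-fold for Bub1b. Ttk, the kinase Mps1 that starts checkpoint signalling, read 228.5, 102.3, 29.9 and 32.2, and was 3.42-fold and 3.18-fold lower. The median of these 4 genes on plastic was −1.96 on the log2 scale. Mad1l1, the anchor of Mad2 at kinetochores, is not among the 37 and was singled out after its values were seen, because it went the other way, at 33.3, 137.2, 298.6 and 220.0.

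At the kinetochore, which joins the centromere to microtubules, the Ndc80 complex supplies the microtubule grip. Ndc80 read 238.5, 82.4, 9.8 and 10.9, so both mature values lay under the floor. It was at least 5.57-fold lower on plastic and at least 5.22-fold lower on dentin than in pOC. Spc25, of the same complex, read 518.6, 234.7, 43.1 and 33.0, and Nuf2 384.8, 192.5, 41.3 and 47.3. The order of early above mature was alike for the 3 subunits, although a dim second probe set of Spc25 read 25.6, 18.1, 15.1 and 23.5 and did not show it.

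The other centromere genes differed less between BMM and pOC. Cenpa is the histone H3 variant that marks the centromere, and it read 753.7, 590.3, 195.5 and 104.2. Cenpe, a kinesin that moves chromosomes to the spindle equator, read 288.5, 200.8, 42.7 and 38.6. Cenpf, a large protein of the outer kinetochore, read 271.8, 202.5, 43.4 and 40.3. None of them was counted between BMM and pOC, and all were lower in both mature cultures, from 3.02-fold for Cenpa on plastic to 5.67-fold for the same gene on dentin. A dim second probe set of Cenpa, 23.5 in pOC and 14.9 in mOCp, showed a smaller gap.

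The genes that trigger anaphase included some of the widest gaps and the exception. Cdc20 activates the APC/C, the ubiquitin ligase that marks cyclin B and securin for destruction, and it read 1414.5, 1374.2, 145.4 and 196.3. Ube2c, the ubiquitin-conjugating enzyme of the APC/C, read 1572.0, 1938.3, 258.4 and 216.4. Neither was lower in pOC, and both were among the genes with the widest gaps afterwards, Cdc20 at 9.45-fold and 7.0-fold and Ube2c at 7.50-fold and 8.96-fold. Espl1, separase, is the protease that cuts cohesin, and it read 163.3, 199.7, 279.9 and 338.2. Unlike for the other 36 genes, both mature values lay above both early ones, with mOCd highest and BMM lowest, but the differences against pOC were 1.40-fold and 1.69-fold and were not counted as higher. On the log2 scale they were 0.49 and 0.76, and 0.06 and 0.41 with the spike-in scaling. The first 2 values exceed 1 probe-set SD over all genes (0.397 and 0.504). They lie within 1 SD of the mitosis genes alone (0.578 and 0.837). The only probe set of Espl1 gives no second reading. Its promoter held TTTGAA and 1 CCAAT match close to the start, as did that of Kif11.

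The spindle genes encode motors and microtubule proteins. Kif11, the kinesin that pushes spindle poles apart, read 372.5, 245.4, 38.5 and 27.4. Tacc3, which stabilises spindle fibres, read 287.6, 216.9, 38.4 and 27.8. Both were lower by wide margins, Kif11 6.37-fold and 8.96-fold and Tacc3 5.65-fold and 7.80-fold. Tpx2, which activates Aurora A and nucleates microtubules, stood at 476.0, 283.4, 136.0 and 65.0. It kept the most on plastic relative to pOC of the 35 genes counted, and was 2.08-fold lower there but 4.36-fold lower on dentin. Nusap1, a microtubule bundling protein, read 547.3, 347.2, 70.2 and 73.1, Aspm, at spindle poles, 257.5, 184.0, 35.0 and 34.3, and Kif2c, a microtubule depolymerase, 312.1, 257.5, 58.3 and 56.5. These 3 were 4.42-fold to 5.36-fold lower than pOC. Kif4, a chromosome-bound kinesin, read 148.4, 80.7, 29.2 and 27.7.

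The cytokinesis genes had the lowest median between BMM and pOC of the 9 role groups, −0.93 on the log2 scale. The groups are small, with 2 to 7 genes. Of the 6 cytokinesis genes 3 were lower, where 13.1% of bright genes were. With values averaged over probe sets Anln stood at −0.21, and only Ect2, which has 1 probe set, stayed counted. Ect2, the exchange factor that switches on RhoA at the cell equator, read 518.8, 214.0, 28.6 and 35.3. Anln, anillin, a scaffold of the contractile ring, read 947.7, 406.4, 126.7 and 63.3. Kif23, the motor subunit of centralspindlin, read 441.2, 195.4, 78.1 and 88.1. These 3 stepped down at both transitions, and Kif23, on the probe set used, had the smallest gap between pOC and dentin of the genes counted. Racgap1, the partner of Kif23 in centralspindlin, read 626.5, 396.7, 94.0 and 73.4. Prc1, which bundles the midzone microtubules, read 525.9, 329.0, 62.5 and 63.0, and the midzone kinesin Kif20a read 334.3, 301.9, 55.2 and 60. They were not counted between BMM and pOC, and were 4.22-fold to 5.47-fold lower than pOC in the mature cultures.

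Top2a, the topoisomerase that untangles sister DNA, read 1382.4, 848.0, 142.5 and 184.2. Mki67, which coats mitotic chromosomes and is the standard proliferation marker Ki-67, read 1621.9, 1062.2, 178.3 and 212.3. For both the mOCd value lay above the mOCp value, and both lay far under the early ones. Top2a was 5.95-fold and 4.60-fold lower than pOC, and Mki67 5.96-fold and 5.0-fold.

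Mature osteoclasts on dentin and on plastic differed little in these genes. Of 37 genes 2 were lower on dentin and 0 higher, where 0.967% of named genes were lower and 0.835% higher. The median log2 ratio was −0.12, beside 0.01 for bright genes, with 23 negative and 14 positive signs. Of the 37, 18 were bright enough to be counted, and of all such genes 2.55% were lower. Lower genes made up 53.7% of all called, but 42.8% with the spike-in scaling and 67.4% with the median scaling. Within 1 probe-set SD of 0 were 27 of the 37, much the same share as the 72.7% of all bright genes. With the SD of the mitosis genes alone, 0.475, there were 30. The 2 genes were Tpx2, 2.09-fold lower, and Anln, 2.00-fold lower. Neither was counted with log2 values averaged over probe sets, with the spike-in scaling or with the brightness needed at the 90th percentile, where 0 of the 37 were lower.

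The second probe sets of the counted genes can be set against the first. Among other probe sets of counted genes that lay above the floor in either array, 31 of 32 had the same sign in mOCp over pOC and 31 of 32 in mOCd over pOC. The exceptions were a dim set of Bub1b, 18.3 in pOC and 19.8 in mOCp, and the dim set of Spc25. The sets used are by rule the brightest, and ratios of dim sets are pressed towards 0 by the floor. In pOC over BMM 2 of 4 had the same sign, and in mOCd over mOCp 3 of 4.

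**Figure D4:**
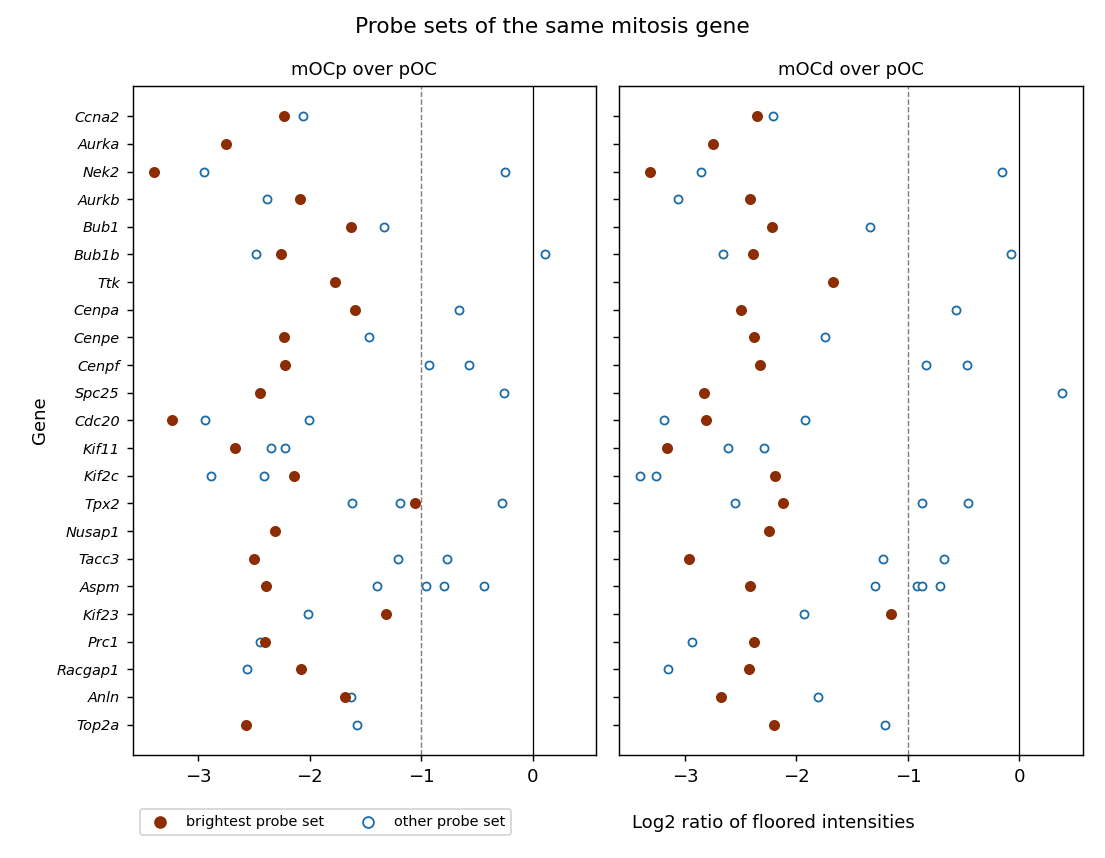
Log2 ratio of each probe set of the mitosis genes that have several, 1 row per gene, for mOCp over pOC and mOCd over pOC, filled for the probe set used and open for others above the floor in either array. All open points of counted genes lie left of 0 except the dim sets of Bub1b on plastic and Spc25 on dentin.

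Wider lists of the division machinery show where the pattern extends. Beside every list, 5.24%, 4.51% and 4.86% of named genes were lower in pOC over BMM, mOCp over pOC and mOCd over pOC. In the same order 4.43%, 3.47% and 4.28% were higher. Among bright genes 13.1%, 11.4% and 12.2% were lower, and 11.1%, 8.77% and 10.8% were higher. Of 69 further mitosis genes, 59, 47 and 47 were bright enough to be counted. Lower were 13 in pOC than in BMM, 35 on plastic and 35 on dentin against pOC. In each comparison 1 was higher, Mad1l1 in pOC and on plastic and Cenpt, a kinetochore protein, on dentin, the latter named for that after its values were seen. The medians were −0.53, −1.65 and −1.82. They include Cdca3, a trigger of mitotic entry, at 1029.5, 686.3, 104.1 and 117.3, and Cdca2, a phosphatase targeting protein of chromosomes, at 199.4, 190.7, 31.3 and 24.9. The DNA replication list had 41 measured genes, of which 8, 26 and 30 were lower, with medians of −0.63, −1.74 and −1.86. Pola1, a subunit of DNA polymerase alpha, read 340.9, 167.0, 27.4 and 36.3, and Mcm5, of the replicative helicase, 1644.2, 989.2, 220.3 and 147.3. Chaf1b, a histone chaperone of the replication fork, was the 1 replication gene higher on dentin than in pOC (606.2 against 232.3) and is named for that after its values were seen.

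The complexes that work in mitosis but also outside it differed. Of 8 condensin genes, which compact chromosomes, 4 were lower in pOC than BMM, and 5 lower in each mature culture than in pOC, Smc2 for example at 1384.5, 661.6, 194.9 and 130.7. Of 9 cohesin genes 0, 1 and 1 were lower, the 1 being Pds5b. Of 16 subunits and regulators of the APC/C, 1, 1 and 2 were lower, with medians of −0.07, −0.39 and −0.38. Fbxo5, the APC/C inhibitor Emi1, was lower in all 3 comparisons, at 416.4, 159.6, 54.1 and 59.4, and Ube2s, the enzyme that lengthens ubiquitin chains, was lower on dentin, 756.9 against 1769.0 in pOC. Anapc13, a small subunit, was the 1 counted as higher, 1039.9 on dentin against 467.8 in pOC. Most APC/C genes passed no threshold, unlike Cdc20 and Ube2c.

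Among 23 regulators of this transcription programme, of which 21, 18 and 18 were bright enough to be counted, 7, 5 and 6 were lower and 0 higher. Mybl2, which encodes B-Myb, read 87.2, 118.8, 20.2 and 35.5. Foxm1 read 68.8, 92.7, 41.0 and 33.4. Both had their highest value in pOC and were lower in the mature cultures, 5.88-fold and 3.35-fold for Mybl2 and 2.26-fold and 2.78-fold for Foxm1. E2f1, an activator of S phase genes, read 219.7, 173.1, 75 and 71.1, and E2f8, an atypical repressor, 355.4, 140.3, 21.9 and 26.7. E2f2 was lower already in pOC, at 18.1 against 173.3 in BMM (9.57-fold), and so was Rbl1, which encodes p107, at 213.3 against 743.2 (3.48-fold). In mOCd over mOCp, Rbl1 was the 1 regulator counted, 2.18-fold lower. The MuvB subunits Lin9 and Lin54 were lower in pOC than in BMM, 2.65-fold and 2.51-fold.

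Of 10 D cyclins, which carry growth factor signals to the cycle, and CDK inhibitors, 4 were lower in pOC than in BMM, and against pOC 0 were lower on plastic and 1 on dentin. The kinases listed with them add Cdk2, which drives S phase entry and was lower in pOC than in BMM, and Cdk4, a partner of D cyclins that was lower on dentin than in pOC. Ccnd1 read 3219.9, 315.7, 263.7 and 153.4, and Ccnd2 210.1, 26, 12.2 and 20.8. They were 10.2-fold and 8.08-fold lower in pOC, the stage at which most of the 37 mitosis genes were within 2-fold of BMM. Cdkn1a, the inhibitor p21, read 1379.9, 645.4, 733.6 and 878.5, and Cdkn2d, p19, 463.1, 156.9, 126.1 and 117.5. Both were highest in BMM. Cdkn2b, the inhibitor p15, was the 1 of these genes counted as higher in the mature cultures, at 16.1, 51.4, 133.5 and 103.2.

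**Figure D5:**
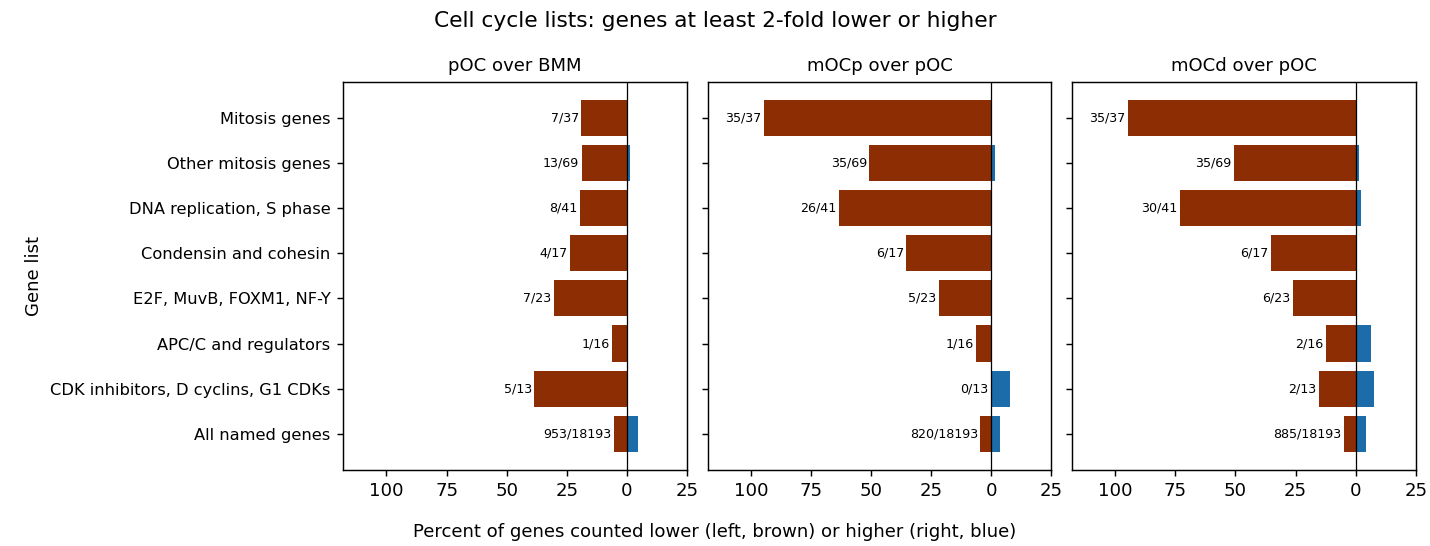
Percentage of the genes of each list counted as lower (brown, left) or higher (blue, right) in pOC over BMM, mOCp over pOC and mOCd over pOC, with the number lower of the number measured beside each bar. The 37 mitosis genes go from 7 lower in the first comparison to 35 in each of the others, further mitosis genes from 13 to 35 of 69, and the APC/C list stays at 1 or 2 of 16. Of the 69 further genes, 59, 47 and 47 were bright enough to be counted.

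Markers of other marrow cells were read alongside. The summed intensity of 8 B cell genes ranged from 88.0 to 112.7 over the 4 arrays, of 8 T and NK cell genes from 26 to 75.4 and of 6 endothelial genes from 34.3 to 69.8. The sum of 10 neutrophil genes was 342.7, 856.8, 1896.2 and 974.3, and its largest part, S100a8, ran from 146.4 to 1112.6, while the progenitor genes Elane, Mpo and Prtn3 did not exceed 41.0. Of the 10 genes 3 were higher in pOC than in BMM, and 3 higher on plastic than in pOC. Among named genes 4.43% and 3.47% were higher. On dentin 1 was higher than in pOC, and 2 were lower than on plastic, against 4.28% and 0.967% of named genes. Lcn2 read 8.4, 121.4, 367.9 and 102.7. Of 8 erythroid genes Tfrc, the transferrin receptor that osteoclasts also use, ran from 956.7 to 7162.0, and the other 7 did not exceed 23.5. The 11 stromal and osteoblast genes summed to 84.9, 343.0, 139.7 and 259.8, with 2, 4, 3 and 5 of them above the floor. Dcn, the brightest of them in pOC and both mature cultures, read 8.8, 196.1, 55.0 and 127.3. The 8 dendritic and mast cell genes summed to 81.2, 74.4, 152.9 and 161.0. Of 4 megakaryocyte genes, summing to between 1330.1 and 2509.6, Pf4 was nearly the whole. The part of such cells in the mitosis gene levels was not tested.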

How the data were processed

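The data were 1 table of linear signal intensities, 1 value per probe set for each of 4 arrays. The intensities were deposited by the authors. The submitters' processing notes name MAS5, whose version is not given in the sources used here. The 2% trimmed mean was 100.0 on every array, so differences in total mRNA between stages are removed. Of 45101 probe sets, 64 were controls and 34945 carried exactly 1 symbol in a platform annotation dated 2016.

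Values under each array's 50th percentile were set to it, and a ratio with its dimmer value there is written as at least N-fold. A gene was counted at 2-fold with the brighter value at or above the 75th percentile. Python 3.11.15 (pandas 2.3.3, numpy 2.4.6) was used, with R 4.3.3 and limma 3.58.1 for the quantile and cyclic loess alternatives. The counting was tested on simulated data with 4-fold changes in bright genes and noise smaller than the probe-set error. That check does not cover 2-fold differences near the brightness needed. Other alternatives were the floor, the probe set, the scaling and the brightness needed. Probe-set error is the SD of the difference between log2 ratios of a gene's 2 brightest probe sets, divided by the square root of 2. Members and lists were chosen with earlier results of these data known. Every list member could be named; from other lists the genes with the 3 largest counted folds per comparison, all regulators and CDK inhibitors, and a few stage markers. Precision is limited by the small number of arrays.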

Additional observations from a re-analysis of the deposited data

How the results depend on the processing

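With 10 alternatives to the settings reported, no mitosis gene was counted as higher in any of the 4 comparisons. The count of lower genes in pOC over BMM, 7, became 3 with log2 values averaged over the probe sets of a gene. The counts of 35 in mOCp over pOC and in mOCd over pOC became 26 and 26 with averaged probe sets, 23 and 23 without suffixed probe sets, where 29 genes could be measured, and 16 and 16 with the brightness needed at the 90th percentile, which fewer genes can reach. The count of 2 in mOCd over mOCp became 0 with averaged probe sets, 0 with the spike-in scaling, 0 with the brightness at the 90th percentile and 1 with cyclic loess. The median of mOCp over pOC moved from −2.23 to −1.80 with averaged probe sets and to −2.66 with the spike-in scaling, which moved the median of all named genes by −0.43 there, by 0.17 in pOC over BMM and by −0.35 in mOCd over pOC. Spc25 changed sign in mOCd over pOC without suffixed probe sets, to 0.38, where a dim probe set took its place. No paired analysis was possible because each stage has 1 array and no replicate number.

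Without replicates, none of these values carries an error between cultures. Values near the floor, such as those of Ndc80 in the mature cultures, are bounds, and a dim probe set understates a ratio.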
